A study of Mus musculus with 8 samples.

Results

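The expression of 8 genes of bone mineralization was followed in single stromal cells isolated from intact and from fractured mouse femora. The genes are Dmp1, Ibsp, Spp1, Mepe, Phex, Alpl, Phospho1 and Enpp1. They were chosen by name, with earlier results of these data known, and they are 8 of 26357 genes kept from the count tables. All cells came from female C57BL/6 mice aged 12 weeks. In the Fracture group a nail was placed inside the marrow cavity and the left leg was broken by three-point bending when the mice were 10 weeks old, and cells were isolated at day 14 after fracture. The Control group consisted of unfractured wild-type females of the same age. Each group comprised 2 cell preparations, and each preparation was run as 2 libraries after cells of the blood lineages, CD45+ cells and CD117+ cells had been removed with magnetic beads in both groups. The titles of the samples were read as preparation and library number. The labels give neither the number of mice in a preparation nor whether its 2 libraries came from 1 cell suspension, and p-values measure only the spread between these preparations.

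Bone and the calcifying layer of cartilage harden when calcium phosphate crystals form in a collagen matrix. The SIBLING proteins are secreted, acidic phosphoproteins that bind mineral. DMP1 is made by late osteoblasts and osteocytes, IBSP (bone sialoprotein) promotes crystal nucleation, SPP1 (osteopontin) restrains crystal growth and carries a cell-binding site, and MEPE is an osteocyte product. PHEX is a membrane peptidase of osteoblasts and osteocytes whose loss causes phosphate wasting and soft bone. ALPL (tissue-nonspecific alkaline phosphatase) degrades pyrophosphate, an inhibitor of mineral, PHOSPHO1 releases phosphate inside matrix vesicles, and ENPP1 makes pyrophosphate. Hypertrophic chondrocytes, the last stage of cartilage before it is replaced by bone, also calcify their matrix.

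The 4 SIBLING genes among the 8 are neighbours on chromosome 5 of GRCm38 and lie on the + strand within 238.4 kb, in the order Dmp1 (104202613 to 104214102, up to 6 exons), Ibsp (104299171 to 104311469, up to 7 exons), Mepe (104325329 to 104338611, up to 3 exons) and Spp1 (104435118 to 104441050, up to 8 exons). Phex lies on chromosome X (157162075 to 157415312, - strand), Alpl on chromosome 4 (137741733 to 137796384, - strand), Enpp1 on chromosome 10 (24637914 to 24712159, - strand) and Phospho1 on chromosome 11 (95824499 to 95832140, + strand). Phospho1 is uncertain in these data, since its span overlaps Zfp652 on the same strand and Abi3 on the other, and reads from the shared part cannot be told apart by position. The start of Spp1 overlaps Gm42793 on the same strand.

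The 250 bases before the RefSeq start of each SIBLING gene (GRCm38.p6, + strand) are shown because these neighbours differed in the cells that held them. Capitals mark matches, on either strand, to 4 motifs. The Runx core was searched as ACCACA. The CCAAT box was searched by the letters of its name. The TATA box was searched as TATAAA. The homeobox core was searched as TAATTA, and no matches overlap. For Dmp1 and Spp1, which have several RefSeq starts, the start nearest to that of the gene in GENCODE is shown.
Dmp1 (chr5:104202367-104202616): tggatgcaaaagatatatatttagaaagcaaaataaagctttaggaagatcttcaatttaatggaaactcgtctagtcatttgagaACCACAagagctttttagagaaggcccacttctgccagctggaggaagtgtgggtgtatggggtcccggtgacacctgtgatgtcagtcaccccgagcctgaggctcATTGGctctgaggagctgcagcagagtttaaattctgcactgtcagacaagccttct
Ibsp (chr5:104299037-104299286): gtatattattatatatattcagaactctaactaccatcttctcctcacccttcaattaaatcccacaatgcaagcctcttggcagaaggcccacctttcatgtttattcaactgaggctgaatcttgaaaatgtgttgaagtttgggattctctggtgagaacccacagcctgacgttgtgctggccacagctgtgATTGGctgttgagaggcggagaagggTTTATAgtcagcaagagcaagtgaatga
Mepe (chr5:104325079-104325328): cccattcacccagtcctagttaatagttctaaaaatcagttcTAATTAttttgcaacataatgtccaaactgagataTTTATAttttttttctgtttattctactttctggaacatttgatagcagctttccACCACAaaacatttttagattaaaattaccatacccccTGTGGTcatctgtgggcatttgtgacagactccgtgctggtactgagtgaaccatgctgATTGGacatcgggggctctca
Spp1 (chr5:104434861-104435110): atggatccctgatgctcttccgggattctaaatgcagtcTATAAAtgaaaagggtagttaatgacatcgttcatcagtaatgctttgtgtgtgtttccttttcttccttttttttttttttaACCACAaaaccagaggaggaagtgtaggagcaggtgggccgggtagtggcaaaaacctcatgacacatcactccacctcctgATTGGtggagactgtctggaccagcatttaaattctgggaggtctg
An inverted CCAAT box was found in each of the 4 windows, at -57 to -53 before Dmp1, -54 to -50 before Ibsp, -21 to -17 before Mepe and -46 to -42 before Spp1, where -1 is the base before the start. A CCAAT box in either direction was found in 33.8% of the 32851 promoter windows of the same length, and the inverted form in 19.7%. A Runx core preceded Dmp1 (-164 to -159), Mepe (-118 to -113 and, inverted, -80 to -75) and Spp1 (-128 to -123), against 14% of all windows, while these letters were not in the window of Ibsp. A TATA box preceded Ibsp (inverted, -28 to -23), Mepe (inverted, -173 to -168) and Spp1 (-211 to -206), and 12.4% of all windows held a TATA box in either direction. The homeobox core, found in 4.84% of all windows, occurred before Mepe at -208 to -203. These matches are a description of the letters only.

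Libraries held 56543151 to 89126291 UMIs (unique molecular identifiers, 1 per captured RNA molecule), and 45328 of 48903 barcodes passed the cell filters. The barcodes of the groups had not been selected alike: the smallest barcode held 1 UMI in Control and 1929 UMIs in Fracture. Osteoblasts were defined as cells with at least 100 UMIs of Bglap plus Bglap2 (osteocalcin, near-identical copies that share reads) per 10000, which gave 1675 and 937 cells of Control and 1041 and 1211 cells of Fracture, by preparation. Hypertrophic chondrocytes were chondrocyte-like cells with at least 20 Col10a1 UMIs per 10000, with 317, 123, 2948 and 3050 cells. The other classes were osteoblast-like cells under the Bglap threshold, other chondrocyte-like cells, marrow stromal cells of BMSC type, and fibroblast-like, endothelial-like, smooth muscle-like and blood-like cells. Each cluster behind them raised all markers of its name. In Fracture, the BMSC-like class kept little of its marker RNA: the summed level of its 6 markers, among them Cxcl12 and Lepr, was 27218 and 28514 CPM (counts per 1000000 UMIs) in Control and 1879 and 2195 CPM in Fracture. The fibroblast-like class also held 3 Schwann cell markers, at 516 and 792 CPM in Control and 1.93 and 3.24 CPM in Fracture. Of the osteoblasts, 4356 were in the osteoblast-like cluster and 271 in chondrocyte-like clusters.

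Each gene had its own order of cell classes. Since UMIs are counted at the 3′ end, once per molecule, CPM can be set side by side between genes without correction for length. The mean level of Ibsp, Spp1 and Alpl was highest in hypertrophic chondrocytes in both groups, and that of Dmp1 and Mepe in osteoblast-like cells under the Bglap threshold. Phex was highest in the latter in Control and in osteoblasts in Fracture, and Enpp1 in hypertrophic chondrocytes in Control and in fibroblast-like cells in Fracture. These orders were not tested.

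In hypertrophic chondrocytes, the Control preparations held Ibsp at 14183 and 19508 CPM and the Fracture preparations at 20147 and 21069 CPM, followed by osteoblast-like cells under the Bglap threshold with 11733, 16568, 16048 and 18252 CPM, in the same order of preparations. Control values of these classes overlapped, and Fracture values did not. Osteoblasts above the threshold held less, between 4465 and 4903 CPM. BMSC-like cells lay between, with 6762, 6426, 7995 and 8737 CPM.

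Spp1 reached 19678, 18216, 24602 and 23587 CPM in hypertrophic chondrocytes. The next class in both groups was the BMSC-like cells, with 15982, 10232, 21349 and 17146 CPM, which in Control overlapped with osteoblast-like cells under the Bglap threshold. Osteoblasts had the least Spp1 of the skeletal classes, with 1213, 534, 3388 and 2909 CPM, while osteoblast-like cells under the threshold had 9036, 11886, 5860.4 and 5889 CPM. Ibsp and Spp1, which lie within the same 238.4 kb of chromosome 5, thus ranked differently below the hypertrophic chondrocytes.

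Dmp1 was found in osteoblast-like cells under the Bglap threshold at 345, 540.3, 332 and 321 CPM and in osteoblasts at 137, 148, 264 and 249 CPM, and these classes did not overlap in either group. BMSC-like cells followed at 62.7, 96.5, 78.2 and 73 CPM. Mepe was rare everywhere, with at most 52.7 CPM in any class and preparation, a value that rests on 88 UMIs in osteoblast-like cells under the threshold of a Control preparation. These cells overlapped in Mepe with other chondrocyte-like cells in both groups.

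Phex was held at 338, 276, 163 and 164 CPM by osteoblasts and at 420.0, 370.2, 128 and 136 CPM by osteoblast-like cells under the threshold. The order of these 2 classes was opposite in Control and Fracture, with no overlap in either. Hypertrophic chondrocytes came next with 121, 127, 113 and 110.0 CPM.

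Alpl was highest in hypertrophic chondrocytes, at 2377, 2265, 1806 and 1802 CPM, against 472, 482, 649 and 622 CPM in osteoblasts. Enpp1, which acts in the opposite direction on pyrophosphate, was also high in hypertrophic chondrocytes (199.6, 229.9, 145 and 143 CPM) and low in osteoblasts (8.48, 4.85, 19.1 and 19.5 CPM). In fibroblast-like cells it reached 251, 154, 455 and 424 CPM, the highest of all classes in Fracture, while in Control it overlapped with hypertrophic chondrocytes. Phospho1 did not exceed 3.59 CPM in any class and preparation, and its total in osteoblasts was 30 and 27 UMIs in the Control preparations, so that no fold change is given for it.

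**Figure D1:**
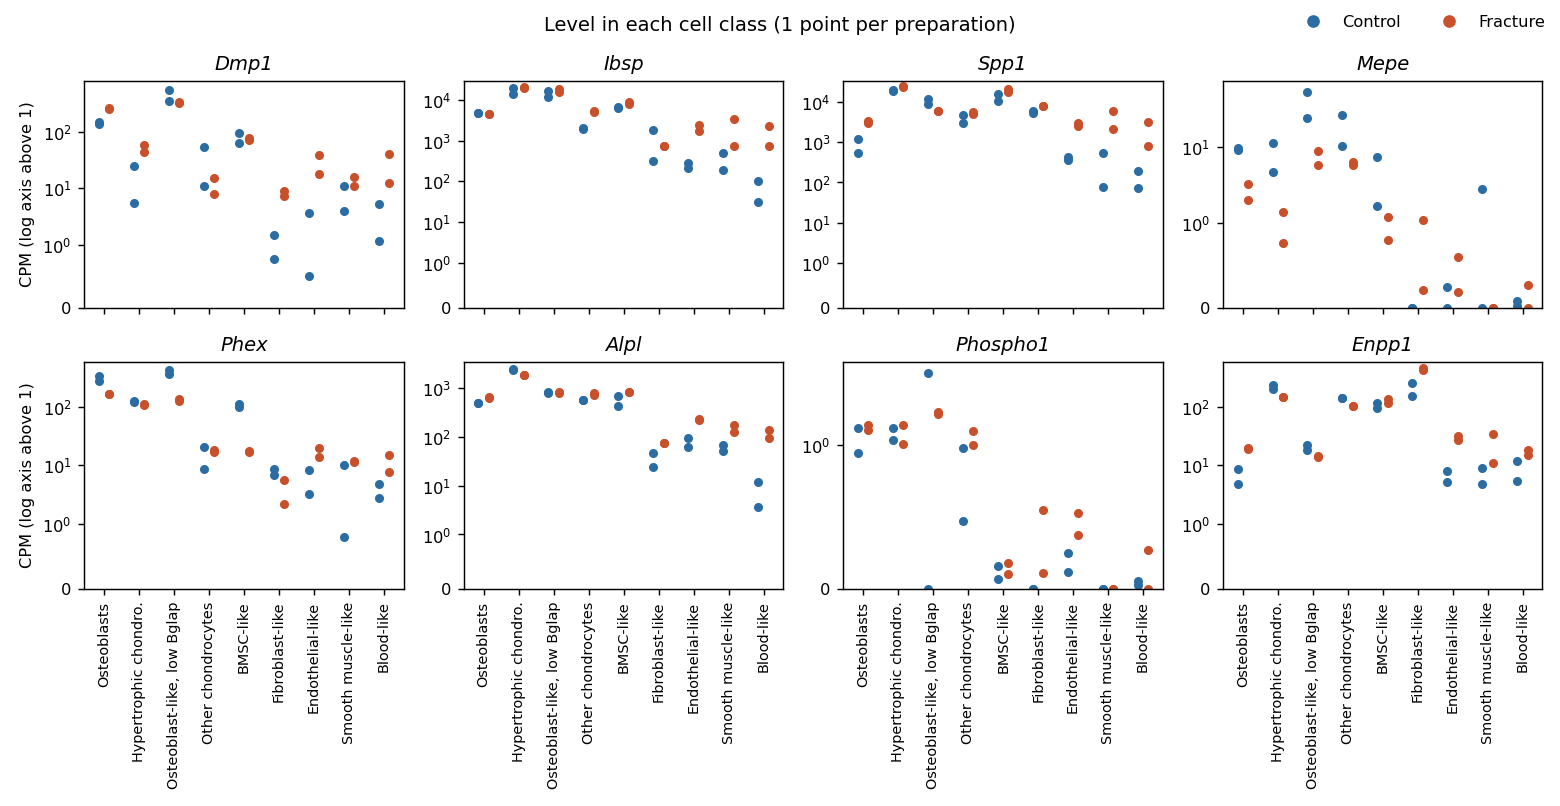
Level of each gene (CPM of summed UMIs, log axis above 1) in 9 cell classes, with 1 point per preparation (Control blue, Fracture red). Ibsp, Spp1 and Alpl peak in hypertrophic chondrocytes, Dmp1 and Phex in the classes of the osteoblast lineage, and Phospho1 stays at or under 3.59 CPM.

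The first comparison asked how the mineralization genes of osteoblasts differed between healing and intact bone. In osteoblasts, 3 members rose in Fracture (Dmp1, Alpl and Enpp1) and 2 fell (Phex and Mepe), while Spp1, Ibsp and Phospho1 did not pass the test. All 8 could be tested, and 9.24% of the 13800 genes tested were called. The median log2 fold change was 0.33 over the members and -0.01 over all genes.

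Dmp1 increased from 143 ± 7.46 CPM (SD, n = 2 preparations) to 256 ± 10.4 CPM. Its values of 137 and 148 CPM in Control and 264 and 249 CPM in Fracture did not overlap, and the log2 fold change was 0.83 ± 0.09 (SE, adjusted p = 0.0169). The 4 libraries of each group did not overlap either, with 114 to 162 CPM in Control and 242 to 282 CPM in Fracture.

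Spp1 had a log2 fold change of 1.85 ± 0.38 that did not pass the test (adjusted p = 0.0551), with 874 ± 480.4 CPM in Control and 3149 ± 339 CPM in Fracture. Both Fracture preparations were above both Control preparations, and the Control preparations differed from each other by more than those of Fracture. DESeq2 gave an adjusted p of 0.0064, and the values over all alternatives ranged from 2.2e-07 to 0.27. Ibsp was not called either, at 4878 ± 35.2 and 4498 ± 46.9 CPM, with a log2 fold change of -0.13 ± 0.11 (adjusted p = 0.468).

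Mepe fell by 1.85 ± 0.24 on the log2 scale (adjusted p = 0.0238), from 9.05 and 9.54 CPM to 3.26 and 1.99 CPM. Phex, the peptidase, fell by 0.92 ± 0.09 (adjusted p = 0.0158), and both Fracture preparations lay below both Control preparations. Dmp1 and Phex, both products of late osteoblasts and osteocytes, thus went in opposite directions.

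Alpl rose by 0.40 ± 0.07 (adjusted p = 0.0425), from 477 ± 6.81 to 635 ± 19.4 CPM. This call was kept in 8 of 13 other settings with all preparations, over which the log2 fold change was 0.29 to 0.45. Among those that lost it were the Bglap threshold at 50, library totals in place of TMM and removal of the highest doublet scores. Enpp1 rose by 1.53 ± 0.25 (adjusted p = 0.037), from 6.67 ± 2.57 to 19.3 ± 0.297 CPM, so that the enzymes that degrade and make pyrophosphate were both higher in Fracture. Without the first library of Control preparation 1, Enpp1 was not called (1.33 ± 0.35, adjusted p = 0.083).

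The 6 osteoblast markers, Bglap and Bglap2 among them, summed in osteoblasts to 103558 and 122844 CPM in Control and 56601 and 72178 CPM in Fracture. Most of this sum was Bglap (70229, 84527, 39282 and 49312 CPM) and Bglap2 (31189, 36396.5, 15436 and 21097 CPM). These genes also define the class, so that the sum is no independent measure of it. Markers of other cell types differed between the groups as well. The summed level of the 6 chondrocyte markers was 11335 and 10332 CPM in Control and 14956 and 15955 CPM in Fracture, and Col10a1 was at 100.4 and 16.3 CPM in Control and 1121 and 647 CPM in Fracture, which did not pass the test (3.93 ± 0.92, adjusted p = 0.0698). The 5 erythroid markers summed to 113 and 185 CPM in Control and 921 and 1020.4 CPM in Fracture, and those of the neutrophil lineage to 51.3 and 8.79 against 70.1 and 217.5 CPM. Lower in Fracture were the markers of basophils (433 and 124 against 44.7 and 2.06 CPM), megakaryocytes (273 and 67.3 against 22.7 and 7.07 CPM) and BMSC (212 and 156 against 68.5 and 72.1 CPM). If all Col10a1 in osteoblasts had come with the RNA of hypertrophic chondrocytes of the same preparation, that RNA would have brought 705 CPM of Spp1, 596 CPM of Ibsp, 52.5 CPM of Alpl, 4.19 CPM of Enpp1 and 1.44 CPM of Dmp1 to the Fracture mean. The part of such RNA, and of the other cell types, in these results was not tested. With osteoblasts restricted to the osteoblast-like cluster, the log2 fold change of Alpl was 0.41 (adjusted p = 0.0557) and that of Enpp1 1.15 (adjusted p = 0.103). In that fit 518 of all genes rose and 223 fell, against 872 and 403 with all osteoblasts. Without either Fracture preparation none of the 8 members was called, when edgeR called 0 of all genes at 2380 and 2512 with an unadjusted p under 0.05.

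**Figure D2:**
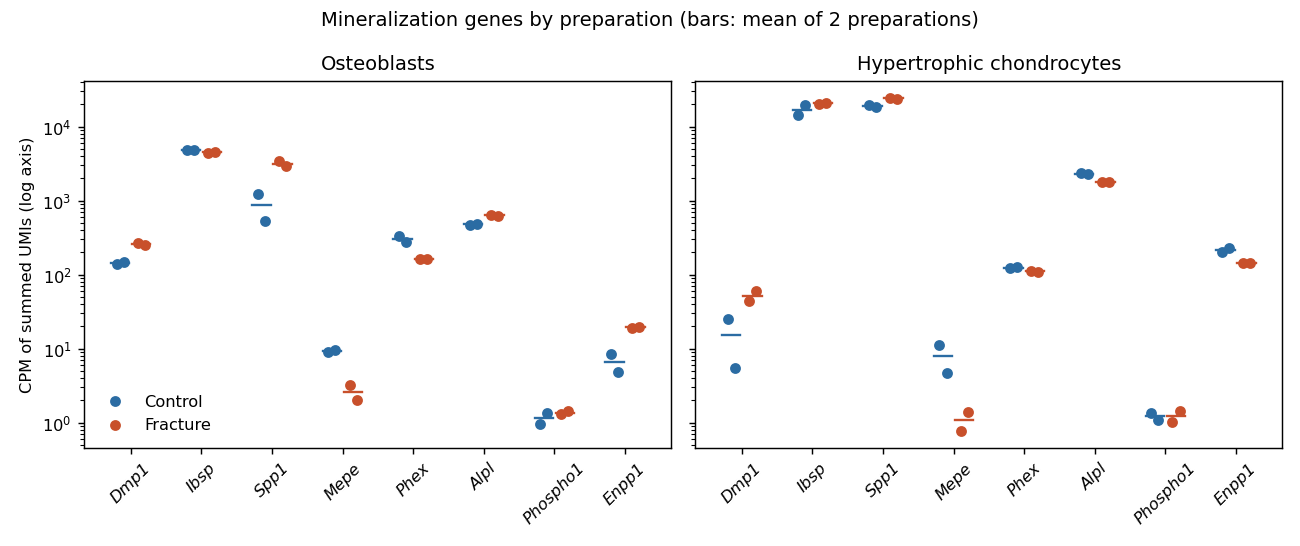
CPM of the 8 genes (log axis) in osteoblasts and hypertrophic chondrocytes, with 1 point per preparation and a bar at the mean of 2. In osteoblasts Dmp1, Alpl and Enpp1 are higher in Fracture and Phex and Mepe lower, whereas in hypertrophic chondrocytes Alpl and Enpp1 are lower.

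Hypertrophic chondrocytes were compared next, those of the Control femur with those of a femur with fracture callus. In this class none of the members rose and 3 fell (Mepe, Alpl and Enpp1), with 5 that did not pass the test, among 14668 genes of which 19.4% were called. The median log2 fold change was -0.13 over the 8 members and 0.01 over all genes. As in osteoblasts, no call was left without either Fracture preparation, with 2164 and 2225 genes at an unadjusted p under 0.05. Without the first library of Control preparation 1, 4 members and 2170 of 14461 genes were called, of the members Dmp1 and Spp1 as higher, Alpl and Enpp1 as lower. This fit was added after the data were seen, and the library left out was the highest of Control in Dmp1.

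Alpl fell by 0.40 ± 0.07 (adjusted p = 0.022), from 2321 ± 79.4 to 1804 ± 2.15 CPM. Enpp1 fell by 0.61 ± 0.10 (adjusted p = 0.0183), from 215 ± 21.4 to 144 ± 1.43 CPM. Both enzymes of pyrophosphate thus went down in hypertrophic chondrocytes and up in osteoblasts. Enpp1 was not called when the 6% of cells with the highest doublet scores were removed.

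Mepe fell by 3.03 ± 0.50 (adjusted p = 0.0179), from 11.2 and 4.71 CPM to 0.765 and 1.41 CPM, and its Control values rest on 66 and 13 UMIs. The first library of Control preparation 1 held 17.2 CPM and the second 3.48 CPM. Without the first, the Control mean was 4.10 CPM and the difference of -1.92 ± 0.56 did not pass (adjusted p = 0.0777). The call was lost with the Col10a1 threshold at 10 or at 50. Over 13 other settings with all preparations, these among them, the log2 fold change was between -3.22 and -2.05. Phex was at 124 ± 3.98 and 112 ± 2.46 CPM, with a log2 fold change of -0.19 ± 0.08 (adjusted p = 0.173).

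Spp1 differed by 0.31 ± 0.10 (adjusted p = 0.0873) and Ibsp by 0.25 ± 0.18 (adjusted p = 0.366), and neither was called. DESeq2 called Spp1 (adjusted p = 3.92e-06), as did edgeR with the Col10a1 threshold at 50 (adjusted p = 0.0282). Dmp1 had a log2 fold change of 1.65 ± 0.59 (adjusted p = 0.116), with 24.8 and 5.44 CPM in Control and 43.7 and 59.4 CPM in Fracture. Its Control libraries stood apart, with 41.7 CPM in the first library of preparation 1 and 3.09, 6.09 and 4.48 CPM in the other 3, so that the libraries of the groups overlapped (39.4 to 64.3 CPM in Fracture). Without that first library, a fit added after the data were seen, Dmp1 rose by 3.55 ± 0.31 (adjusted p = 0.00356) and Spp1 by 0.30 ± 0.07 (adjusted p = 0.0419). That library held the most Dmp1 of the Control libraries, so that leaving it out raises the fold change of Dmp1 by construction. The Dmp1 values of the Control preparations then rest on 8 and 15 UMIs.

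Spp1 UMIs were found in a larger share of hypertrophic chondrocytes in Fracture. With every cell thinned to 1000 UMIs, 44.5% and 48.8% of hypertrophic chondrocytes of Control held an Spp1 UMI, against 85.9% and 82.6% of those of Fracture (median 20091 and 13646 UMIs per cell in the groups before thinning). Unthinned, the shares were 83.0% and 76.4% against 99.7% and 99.6%. No cell of the class was left out by thinning. The share in endothelial-like cells, a class not known for this gene, was 11.8% in Control and 33.6% in Fracture (median 4513 and 7763 UMIs). In osteoblasts 19.3% and 48.8% of cells held a UMI, and 12 Control cells were left out as too shallow. For each of these shares the exact permutation test (two-sided) gave p = 0.333, the smallest value that 2 against 2 preparations allow.

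The 6 osteoblast markers in hypertrophic chondrocytes summed to 1321 and 1304.5 CPM in Control and 369.9 and 399 CPM in Fracture, with all 6 detected. The 5 erythroid markers summed to 8.3 and 62.4 CPM in Control and 816 and 944 CPM in Fracture. Lower in Fracture were the markers of BMSC (203 and 163 against 73.2 and 73.7 CPM), basophils (474 and 31.2 against 2.84 and 8.12 CPM) and megakaryocytes (152 and 38.8 against 10.5 and 8.7 CPM). Their part in the values of the members was not tested.

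The difference of the fracture effect between classes was tested directly, with the preparation as a block. Between osteoblasts and hypertrophic chondrocytes it passed the threshold for 5 of 8 members, with 20.4% of the 15073 genes called. The difference (osteoblasts minus hypertrophic chondrocytes, log2) was 2.03 ± 0.21 for Enpp1 (adjusted p = 0.00012), 1.58 ± 0.24 for Spp1 (adjusted p = 0.00122) and 0.75 ± 0.09 for Alpl (adjusted p = 0.000285), all higher in osteoblasts, and -0.79 ± 0.10 for Phex (adjusted p = 0.00039) and -0.46 ± 0.11 for Ibsp (adjusted p = 0.0183). For Dmp1 it was -0.68 ± 0.38 (adjusted p = 0.253). With no block, the calls of Spp1 and Ibsp were lost and those of Enpp1, Alpl and Phex were kept. That of Ibsp was also lost with the highest doublet scores removed.

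**Figure D3:**
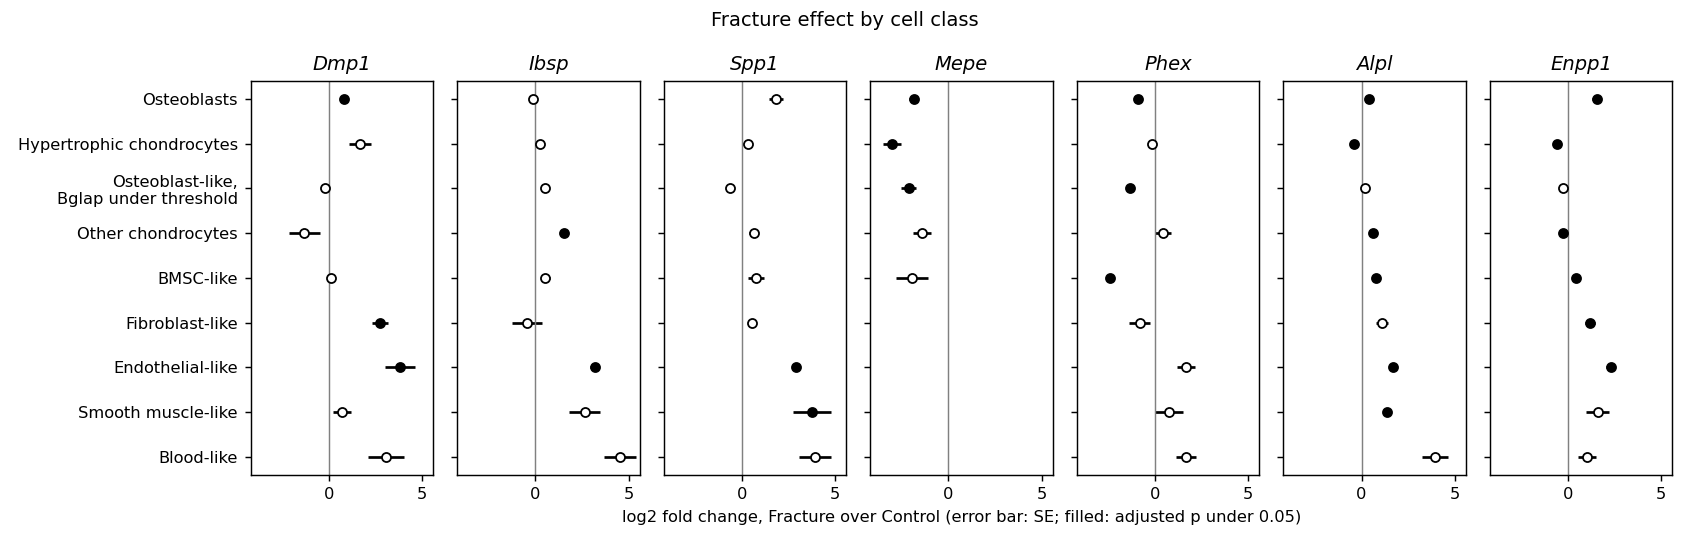
log2 fold change of 7 members (Fracture over Control, edgeR; error bars are SE, filled points have an adjusted p under 0.05) in 9 cell classes. Alpl and Enpp1 lie on opposite sides of 0 in osteoblasts and hypertrophic chondrocytes, and Phex falls most in BMSC-like cells.

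Among the other skeletal classes, Phex fell most in BMSC-like cells. In BMSC-like cells it went from 114 and 99.9 CPM to 18 and 17.3 CPM, by -2.41 ± 0.10 on the log2 scale (adjusted p = 0.00128), and in osteoblast-like cells under the Bglap threshold from 420.0 and 370.2 CPM to 128 and 136 CPM, by -1.37 ± 0.11 (adjusted p = 0.00315). In the BMSC-like class the fall came with the low marker level described above, and 52.0% of 14705 genes were called there. The part of that marker level in the fall of Phex was not tested. Osteoblasts and BMSC-like cells differed in the fracture effect on Phex by 1.49 ± 0.09 (log2, osteoblasts minus BMSC-like cells, adjusted p = 2.64e-05, 38.5% of genes called).

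BMSC-like cells also showed rises of Alpl (0.78 ± 0.23, adjusted p = 0.0464) and Enpp1 (0.44 ± 0.13, adjusted p = 0.0423), so that 2 of 7 members tested rose and 1 fell, against 52.0% of all genes called. Markers of other cell types differed between the groups in this class, the chondrocyte list with 752 and 338 CPM in Control and 3323 and 3679 CPM in Fracture, the smooth muscle list with 292 and 207 against 1357 and 1086 CPM, and the fibroblast list with 136 and 33.2 against 818 and 909 CPM. Their part in these calls was not tested. Spp1 and Ibsp, both abundant there, were not called. Without integration of the libraries, the BMSC-like cluster held 79 and 105 Fracture cells, the log2 fold change of Enpp1 was -0.49 (adjusted p = 0.239) and that of Phex -1.79 (adjusted p = 0.0356). The call of Alpl was kept there. In that fit 93 of 13051 genes rose and 97 fell. Over 13 other settings with all preparations, the call of Alpl was kept in 9 and that of Enpp1 in 10. That of Alpl was lost with library totals in place of TMM and with the Bglap threshold at 200. It was also lost with osteoblasts restricted to the osteoblast-like cluster and with cells of at least 3000 UMIs. That of Enpp1 was lost with library totals, with the preparation number as a block and without integration.

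In osteoblast-like cells under the Bglap threshold, Mepe fell along with Phex (-2.13 ± 0.41, adjusted p = 0.0305), 2 of 7 members tested, with 11.6% of genes called. Spp1 was at 10461 ± 2015 CPM in Control and 5875 ± 20.5 CPM in Fracture, a difference of -0.62 ± 0.16 that did not pass (adjusted p = 0.0597), and Dmp1 gave -0.23 ± 0.22 (adjusted p = 0.521). The osteoblast markers of the class summed to 6574 and 5451 CPM in Control and 4519 and 4406 CPM in Fracture, and the chondrocyte markers to 3493 and 3227 against 6551 and 5982 CPM. The osteoblast sum includes the genes of the threshold, Bglap (2638, 2044, 1381 and 1378 CPM) and Bglap2 (1413, 877, 499.7 and 526 CPM). It is thus no independent measure of the class. Lower in Fracture were also the markers of BMSC (164 and 186 against 47.4 and 49.3 CPM), basophils (408 and 40.7 against 3.03 and 3.01 CPM) and megakaryocytes (197 and 72.5 against 8.97 and 8.25 CPM). Their part in the falls was not tested.

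Other chondrocyte-like cells differed from hypertrophic chondrocytes in Ibsp. There Ibsp rose by 1.55 ± 0.11 (adjusted p = 0.00318), from 1921 and 2031 CPM to 4978 and 5294 CPM, and Alpl by 0.61 ± 0.06 (adjusted p = 0.00603), whereas Enpp1 fell by 0.29 ± 0.05 (adjusted p = 0.0177). These were 3 of 8 members, and 31.4% of genes were called. Col10a1 was at 70.5 and 48.4 CPM in Control and 432 and 418 CPM in Fracture in this class, and the osteoblast markers summed to 1264 and 1341 against 655 and 697 CPM. The erythroid markers summed to 159.6 and 427 against 1039 and 1016 CPM, those of basophils to 556 and 288 against 5.17 and 11.3 CPM and those of fibroblasts to 663 and 532 against 264 and 277 CPM. Scaled to Col10a1, RNA of hypertrophic chondrocytes would have brought 5.69% and 5.59% of the Ibsp of the Fracture preparations. Their part in the rise of Ibsp was not tested. The fracture effect on Ibsp was lower in hypertrophic chondrocytes than in other chondrocyte-like cells by -1.20 ± 0.12 (adjusted p = 4.28e-07, 11.7% of genes called), and that on Alpl by -0.94 ± 0.07 (adjusted p = 1.08e-08). The classes were not composed alike, since the 2 clusters behind the other chondrocyte-like cells held 831 and 890 cells of the first Control preparation and 270 and 269 of the second, but 2643 and 1124 of the first Fracture preparation and 2816 and 1148 of the second.

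Fibroblast-like cells rose in Enpp1, by 1.19 ± 0.27 (adjusted p = 0.0449), and in Dmp1, by 2.76 ± 0.45 (adjusted p = 0.0228) from 1.47 and 0.782 CPM to 9.1 and 7.23 CPM. These were 2 of 6 members tested, with 16.0% of genes called. Only 4 and 1 UMIs of Dmp1 stood behind the Control values. Both calls were lost with the preparation number as a block and with the highest doublet scores removed. That of Enpp1 was also lost without integration. Over 13 other settings with all preparations, the log2 fold change was 2.00 to 3.06 for Dmp1 and 0.74 to 1.27 for Enpp1. The class's own markers summed to 20327 and 22505 CPM in Control and 8203 and 8714 CPM in Fracture, and the chondrocyte markers to 3099 and 1827 against 10449 and 9670.0 CPM. The erythroid markers summed to 20.6 and 108.6 against 1201 and 1452 CPM, and those of osteoclasts to 333 and 293 against 731 and 752 CPM. Lower in Fracture were the markers of BMSC (625 and 563 against 243 and 249 CPM), basophils (709.6 and 210 against 2.76 and 1.62 CPM) and megakaryocytes (263 and 82.1 against 33.4 and 62.8 CPM). Their part in these rises was not tested.

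In endothelial-like cells 5 of 6 members tested rose (35.9% of genes called). Ibsp was at 283 and 214 CPM in Control and 1767 and 2410.2 CPM in Fracture, Spp1 at 352 and 433 CPM and 2999 and 2458 CPM, with log2 fold changes of 3.19 ± 0.24 (adjusted p = 0.00728) and 2.91 ± 0.17 (adjusted p = 0.00673). Alpl, Enpp1 and Dmp1 rose by 1.68, 2.28 and 3.82 on the same scale, and the calls of Alpl and Dmp1 were lost when the cells with the highest doublet scores were removed. Col10a1, which endothelial cells are not known to make, was at 84.9 and 90.9 CPM in Control and 2425 and 2384 CPM in Fracture. The chondrocyte markers summed to 1932 and 615 against 13627 and 13657 CPM, the erythroid to 875 and 139.6 against 2966 and 3020 CPM, those of BMSC to 1934 and 1382 against 639 and 710 CPM, and the class's own to 7309 and 7169 against 5666 and 5639 CPM. RNA of hypertrophic chondrocytes that brought this Col10a1 would have brought 89.9% and 70.0% of the Ibsp, 64.7% and 76.9% of the Spp1, 65.3% and 63.6% of the Alpl, 35.7% and 42.4% of the Enpp1 and 9% and 26.5% of the Dmp1 seen in the Fracture preparations. The part of this RNA and of the other cell types in the rises was not tested. In smooth muscle-like cells Spp1 and Alpl rose (2 of 6 members, 25.6% of genes called). Both calls were lost without integration, with called doublets removed and with the highest doublet scores removed. That of Spp1 was also lost with no filter on low counts and with cells of at least 3000 UMIs. Over 13 other settings with all preparations, the log2 fold change was 1.98 to 4.16 for Spp1 and 0.51 to 1.54 for Alpl. Col10a1 was at 42.4 and 16.8 CPM in Control and 2954 and 1473 CPM in Fracture. Scaled to this Col10a1, RNA of hypertrophic chondrocytes would have brought 39.2% and 54.6% of the Spp1 and 99.0% and 70.9% of the Alpl of the Fracture preparations. The class's own 5 markers summed to 39154 and 37477 CPM in Control and 19226 and 21281 CPM in Fracture. The chondrocyte markers summed to 795 and 129.9 against 9664 and 5264 CPM, and the erythroid to 49.1 and 100.2 against 3891 and 4173 CPM. Those of fibroblasts summed to 779 and 763 against 1859 and 2360 CPM. Lower in Fracture were the markers of BMSC (1785 and 1721 against 1154 and 1018 CPM), basophils (321 and 61.7 against 2.76 and 2.71 CPM) and megakaryocytes (363 and 344 against 10.3 and 13.5 CPM). The part of this RNA and of these cell types in the rises of Spp1 and Alpl was not tested.

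In blood-like cells none of the 6 members tested was called, as edgeR called 0% of 15272 genes there. At an unadjusted p under 0.05 edgeR found 1606 genes, and DESeq2 called 573 genes as higher and 168 as lower in Fracture. Ibsp (101, 31, 2246 and 756 CPM) and Spp1 (192, 72.4, 3133 and 786 CPM) were higher in both Fracture preparations than in either of Control, and so was Col10a1 (40.7, 14.1, 1540.2 and 649.7 CPM). The class was not composed alike, since of its 3 clusters the one largest in the first Control preparation held 2262, 913, 86 and 84 cells and the next 713, 1784, 202 and 277 cells. Its erythroid markers summed to 1615, 13367, 52119 and 74177 CPM. Their part in these values was not tested.

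The UMIs of a gene were spread over the classes differently in Control and Fracture. As means over preparations, hypertrophic chondrocytes held 19.4% of Ibsp UMIs in Control and 60.1% in Fracture, 20.9% and 61.0% of Spp1, 23.9% and 54.6% of Alpl, and 4.62% and 50.4% of Phex. The share of osteoblasts went from 35.6% to 4.17% for Ibsp, from 70.9% to 23.5% for Phex and from 58.4% to 33.6% for Dmp1. BMSC-like cells held 47.3% of Spp1 UMIs in Control and 11.8% in Fracture. Hypertrophic chondrocytes made up 2.49% and 1.55% of all cells of Control and 24.8% and 23.9% of those of Fracture, and osteoblasts 13.1% and 11.8% against 8.77% and 9.47%. BMSC-like cells made up 20.3% and 21.5% of cells of Control and 8.58% and 8.66% of those of Fracture.

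**Figure D4:**
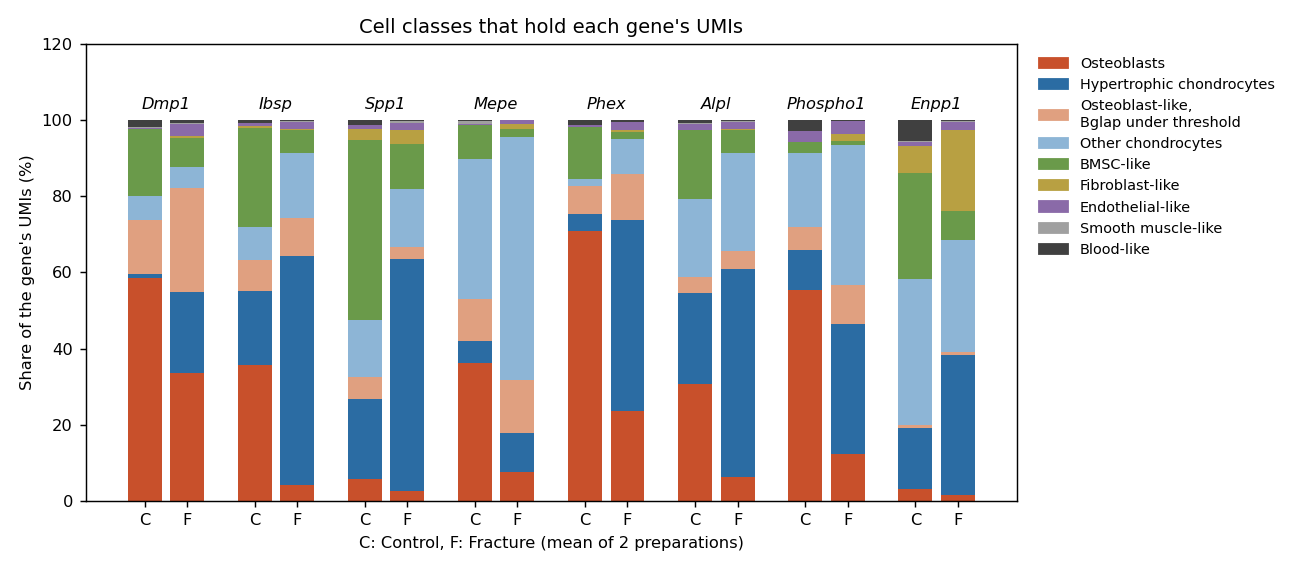
Share of each gene's UMIs (percent, mean of 2 preparations) held by 9 cell classes in Control (C) and Fracture (F). Hypertrophic chondrocytes hold 60.1% of Ibsp and 61.0% of Spp1 UMIs in Fracture, against 19.4% and 20.9% in Control.

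Over all cells that passed the filters, Ibsp stood at 3296 and 2966 CPM in Control and 9656 and 10044 CPM in Fracture, and Spp1 at 3980.3 and 2777 CPM against 11835 and 10850.5 CPM. Phex went the other way, with 114 and 85.1 CPM in Control and 63.3 and 64 CPM in Fracture. Dmp1 was at 52.7 and 59.5 CPM in Control and 68.4 and 70.6 CPM in Fracture over all cells, with no overlap. With blood-like cells left out it was at 70.7 and 98.8 CPM and at 69 and 72 CPM, and its levels overlapped. Blood-like cells made up 27.9% and 36.6% of cells of Control and 2.60% and 2.95% of those of Fracture. Without them Ibsp was at 4515 and 4945 against 9816 and 10258.5 CPM, and Spp1 at 5426 and 4600 against 12023 and 11083 CPM. Phex was then at 155 and 141 against 64.5 and 65.1 CPM.

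Within osteoblasts, several members varied with the Bglap level of the cell, which also defines the class. Spp1 in Control was at 2544 and 2064 CPM in cells with 100 to 200 Bglap plus Bglap2 UMIs per 10000, at 2269 and 949 CPM with 200 to 400, and at 979 and 372 CPM with 400 and over. In Fracture it was at 3962 and 4889, 5224 and 4263, and 2357 and 1904 CPM in the same bins. Enpp1 declined over the bins in both groups, from 33.7 and 31.5 CPM to 5.52 and 1.83 CPM in Control and from 38.6 and 46.2 CPM to 9.78 and 9.59 CPM in Fracture.

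Inside each of the 3 bins, the Fracture preparations lay above those of Control in Dmp1 and below them in Phex. In the bin with 400 and over, which held 3237 osteoblasts, more than the lower bins, Dmp1 was at 124 and 142 CPM in Control and 249 and 235 CPM in Fracture, and Phex at 314 and 259.6 CPM against 180.1 and 184 CPM. Alpl differed in this way in the top bin, at 434 and 452 CPM in Control and 638 and 616 CPM in Fracture. It overlapped in the lower bins, at 868 and 660.2 CPM against 669.6 and 663 CPM with 100 to 200 and at 509 and 633 CPM against 657 and 598 CPM with 200 to 400. Bglap itself was lower in Fracture osteoblasts, at 39282 and 49312 CPM against 70229 and 84527 CPM. Just below the threshold, in cells with 50 to 100, Spp1 was at 5379 and 3163 CPM in Control and 5714 and 3286 CPM in Fracture, and these values overlapped.

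**Figure D5:**
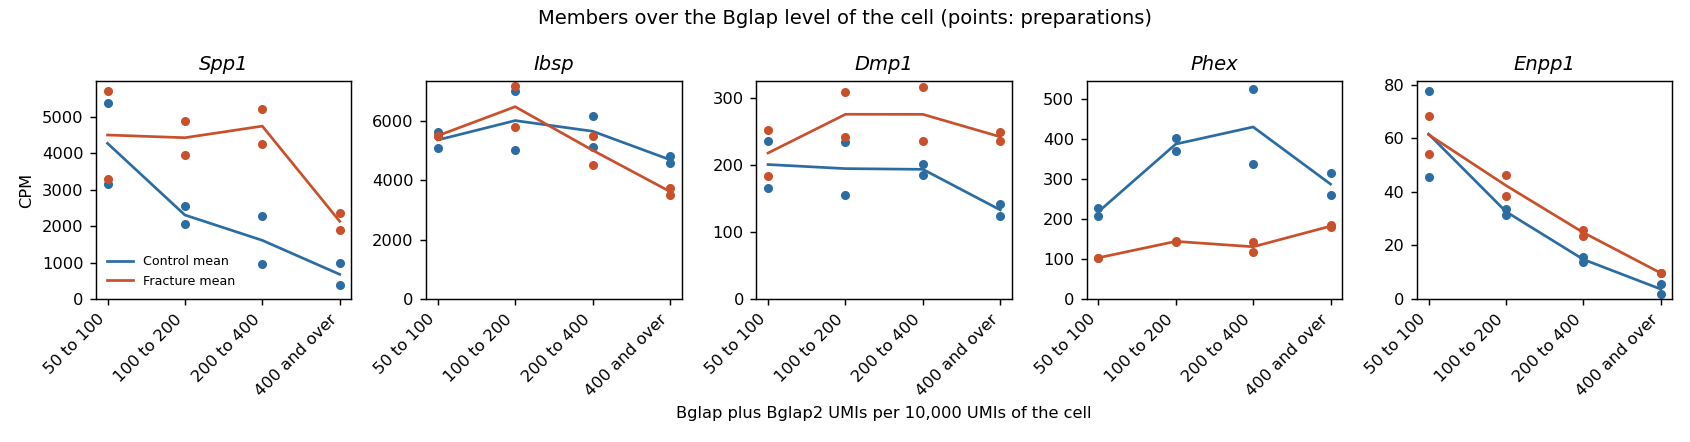
CPM of Spp1, Ibsp, Dmp1, Phex and Enpp1 over bins of the cell's Bglap plus Bglap2 UMIs per 10000 (points are preparations, lines the mean of 2; Control blue, Fracture red). Enpp1 declines over the bins in both groups, and Phex is lower in Fracture in every bin, also in cells with 50 to 100 that are not osteoblasts by the threshold.

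Osteoblasts with at least 5 Dmp1 UMIs per 10000 numbered 121 and 75 in Control and 162 and 183 in Fracture. In Control these cells held Phex at 695 and 527 CPM and Mepe at 34.1 and 19.5 CPM, whereas the other osteoblasts held Phex at 315 and 257 CPM and Mepe at 7.42 and 8.81 CPM. In Fracture, Phex was at 183 and 191 CPM in the cells with Dmp1 and 159.5 and 159 CPM in the others. Mepe was in Fracture at 1.04 and 3.69 CPM against 3.67 and 1.68 CPM. Its values in the cells with Dmp1 rest on 2 and 9 UMIs, too few to show an order or its absence. Sost, a product of osteocytes, did not exceed 2.08 CPM in the cells with Dmp1, and Fgf23 had no UMI there. Cells were split by Dmp1 itself, so that its own difference is no finding, and the splits were not tested.

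In hypertrophic chondrocytes with at least 200 Col10a1 UMIs per 10000, Spp1 stood at 20341 and 17191 CPM in Control and 28464.5 and 28615 CPM in Fracture, against 20420 and 12359 CPM and 15971 and 14417 CPM in those with 20 to 100. Between these bins, with 100 to 200, it was at 15243 and 31298 CPM in 42 and 20 cells of Control and at 24691 and 21508 CPM in Fracture, so that the bins with more Col10a1 held more Spp1 in both Fracture preparations and in neither of Control, which was not tested. Phex was highest at 200 and over in each preparation, at 156, 171, 130.4 and 128 CPM, against 94.6, 110.1, 111 and 99.3 CPM with 100 to 200 and 66.7, 37.8, 77.6 and 80.2 CPM with 20 to 100. Alpl showed no such order, with 2338, 2217, 1800.5 and 1803 CPM against 2393, 2593, 1789 and 1734 CPM. Enpp1 was lower in Fracture at 200 and over (243 and 267 against 162 and 166 CPM) and with 100 to 200 (222 and 269.5 against 126 and 129 CPM). With 20 to 100 its groups overlapped, at 106 and 122 CPM in Control and 119 and 102 CPM in Fracture.

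Other genes of the pathways were counted by fixed lists. Some of the most abundant genes of each list are given with their values, and other called genes (Xpr1, Itgb3, Itgav, Cd44, Mgp, Omd, Dlx3, Vdr, Ihh, Panx3 and Vegfa) were named after their values had been seen. Of the pyrophosphate and phosphate list, 6 of 7 genes could be tested. In osteoblasts 1 rose and none fell (median log2 fold change 0.32 over the list, -0.01 over all genes, of which 9.24% were called). It was Nt5e, an ectonucleotidase, with 4.64, 2.65, 18.9 and 19.9 CPM (2.40 ± 0.26, adjusted p = 0.0177). Smpd3, a sphingomyelinase required for bone mineral, was at 409, 432, 423 and 485 CPM, and Ank, a pyrophosphate exporter, at 28, 20.4, 37 and 33.8 CPM, both not called. In hypertrophic chondrocytes 2 genes fell and none rose (median -0.22 against 0.01), with 19.4% of all genes called. Of the 2, the phosphate transporter Slc20a1 went from 106 and 89.2 CPM to 45.2 and 44.4 CPM (-1.16 ± 0.11, adjusted p = 0.00432). The other was Xpr1, a phosphate exporter (-0.59 ± 0.10, adjusted p = 0.0197). Smpd3, the most abundant, was at 832, 703, 849 and 802 CPM and not called.

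A list of 9 genes held Dspp, another SIBLING gene, and 8 partners of the SIBLING proteins (proteases, the kinase Fam20c with its relative Fam20a, and receptors). All but Dspp were tested. In osteoblasts 1 fell, none rose and 7 were not called (median 0.22), against 9.24% of all genes called. The integrin chain Itgb3 fell from 14.8 and 16.3 CPM to 3.09 and 2.38 CPM (-2.53 ± 0.17, adjusted p = 0.00916), and the most abundant, the protease Bmp1, was at 220.4, 202, 293 and 247 CPM (adjusted p = 0.0775). The megakaryocyte markers of osteoblasts summed to 273 and 67.3 CPM in Control and 22.7 and 7.07 CPM in Fracture. The part of RNA from such cells in the fall of Itgb3 was not tested. In hypertrophic chondrocytes 2 rose and 3 fell (median -0.04), against 19.4% of all genes called. Furin, a proprotein convertase, fell from 149.8 and 177 CPM to 76.4 and 88.3 CPM (-1.02 ± 0.13, adjusted p = 0.0101), and Bmp1 from 102 and 84.8 CPM to 68 and 60.4 CPM (-0.57 ± 0.12, adjusted p = 0.0325). Itgav, the integrin chain that pairs with Itgb3 and Itgb5, fell by 0.58 ± 0.10 (adjusted p = 0.0196), whereas Itgb5 rose by 0.36 ± 0.09 (adjusted p = 0.0464) and Cd44, a receptor of osteopontin, by 0.71 ± 0.12 (adjusted p = 0.0211). Fam20c, the kinase of the SIBLING proteins, was at 175, 244, 160.1 and 157 CPM and not called.

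Of the 8 bone matrix genes, 2 rose and none fell in osteoblasts (median 0.24), against 9.24% of all genes called. They were Mgp, an inhibitor of mineral, from 989 and 778 CPM to 2589 and 3576 CPM (1.80 ± 0.21, adjusted p = 0.0209), and Omd, a matrix proteoglycan (0.62 ± 0.09, adjusted p = 0.0256), while Col1a1 was at 132115, 138135, 132024 and 132986 CPM and not called. The chondrocyte markers of the class summed to 11335, 10332, 14956 and 15955 CPM, and the part of chondrocyte RNA in these rises was not tested. In hypertrophic chondrocytes 3 rose and 1 fell (median 0.00 against 0.01), with 19.4% of all genes called. Col1a2 was at 913, 302, 8374 and 8447 CPM (3.76 ± 0.54, adjusted p = 0.0129) and Col1a1 at 618, 144, 5043 and 4642 CPM (3.64 ± 0.70, adjusted p = 0.0264), and Omd rose by 3.95 ± 0.34 (adjusted p = 0.0035), whereas Sparc, a collagen-binding matrix protein, fell from 37935 and 40370.0 CPM to 27450 and 25995 CPM (-0.59 ± 0.11, adjusted p = 0.024). Mgp was at 17288, 22229.9, 14159 and 14458 CPM and not called. Both chains of bone collagen thus rose in a class in which the main edgeR fit called neither Ibsp nor Spp1, while DESeq2 called Spp1. The part of RNA from other cell types in the collagen rises was not tested.

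Of 13 regulators of osteoblasts and osteocytes, 12 were tested. In osteoblasts the vitamin D receptor Vdr (-0.94 ± 0.06, adjusted p = 0.00915) and the homeobox factor Dlx3 (-0.53 ± 0.10, adjusted p = 0.0452) fell and none rose (median -0.21), against 9.24% of all genes called. The most abundant were not called: Ifitm5 was at 1016, 881, 923 and 845 CPM, Pth1r at 648, 731, 835 and 806 CPM and Mef2c at 656, 498, 461 and 463 CPM. The counts of this list in hypertrophic chondrocytes are not given. Pth1r, the receptor of parathyroid hormone, was there at 4499, 4534, 3867 and 3672 CPM and not called. Of the hypertrophic cartilage list, 2 of 8 genes rose in osteoblasts and 3 of 7 in hypertrophic chondrocytes, with none that fell, against 9.24% and 19.4% of all genes called. The median log2 fold change of the list was 1.06 and 0.19. In osteoblasts they were Ihh (2.66 ± 0.41, adjusted p = 0.0329) and Panx3 (1.64 ± 0.17, adjusted p = 0.0169). Ihh was there at 3.53, 1.5, 19.2 and 13.3 CPM, while Col10a1 in osteoblasts of Fracture was 3.65% and 2.17% of its level in hypertrophic chondrocytes. The part of RNA from such cells was not tested. In hypertrophic chondrocytes they were Vegfa (0.73 ± 0.15, adjusted p = 0.032), Mmp13, a collagenase, from 613 and 645 CPM to 2009.6 and 2149 CPM (1.69 ± 0.08, adjusted p = 0.00108), and Ihh, from 255 and 330.3 CPM to 461 and 439 CPM (0.58 ± 0.14, adjusted p = 0.0479). Mmp13 in osteoblasts, at 68.3, 23.6, 158 and 197 CPM, was not called.

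The genes with the most similar profile over the 36 sums of a class in a preparation, by Pearson correlation of log2(CPM + 1) among 10663 genes, were Pth1r (0.95), Hpgd (0.92) and Wnt5b (0.91) for Alpl, Hpgd (0.94), Gpc1 (0.90) and Pth1r (0.90) for Ibsp, Gpx3 (0.92), Srpx2 (0.90) and Timp1 (0.87) for Spp1, and Dkk1 (0.92) for Phex. For Enpp1 they were Spsb1 (0.89), the pyrophosphate exporter Ank (0.89) and Gpr64 (0.89). Among the members themselves, Ibsp and Alpl were most alike (0.94), followed by Dmp1 and Phex (0.81), while Enpp1 and Dmp1 had the lowest value (-0.11). The sums share preparations, and the classes differ in depth, so that these values are a description.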

How the data were processed

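Single-cell RNA sequencing of femoral stromal cells was analysed, 8 libraries of 4 preparations (Chromium 3′ v3, NextSeq500). The authors aligned the reads to mm10 and deposited, for each library, whole-number UMI counts by gene and barcode that had not been normalised. The submitters' processing notes list bcl2fastq 2.19.1.403, UMI-tools 1.0.0, STAR 2.7.3a and featureCounts 1.6.4, while the published methods name STARsolo, so that the counting step is not settled. Without the strand setting, sense and antisense reads cannot be told apart.

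Genes in at least 3 cells and cells with 500 to 6000 genes and at most 25% mitochondrial UMIs were kept. Libraries were integrated in Seurat 5.3.0 (R 4.3.3) with 30 dimensions and clustered at a resolution of 0.1 without the members and list genes. Clusters were named from marker lists. Doublets were scored with scrublet (scanpy 1.11.5, expected 6%), which called 722 cells. These cells were kept, since under 0.5% of the cells of 3 libraries were marked. Libraries shared at most 23 barcodes.

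UMI counts were summed per class and preparation (n = 2 per group) and fitted over all genes with edgeR 4.0.16 (TMM, filterByExpr, quasi-likelihood test, Benjamini-Hochberg, threshold 0.05). The SE is the log2 fold change divided by the square root of F. Values in CPM are plain CPM. The differences between classes used terms for preparation, class and class by group. Shares of cells were compared after thinning to 1000 UMIs (exact permutation test over preparations, two-sided). DESeq2 1.42.0, other thresholds and other settings were tried, and the tests were tried on simulated data. Coordinates came from GENCODE M21 (GRCm38) and promoters from RefSeq (GRCm38.p6). The 8 members were always named, and of each list the most abundant genes of a class. Members, lists and tests were chosen with earlier results of these data known. Python 3.11.15 was used. Results for 1 gene of the lists are not reported here.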

Additional observations from a re-analysis of the deposited data

Results flagged for a closer look

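The fracture effect differed between classes, by a test of the difference itself (edgeR, Benjamini-Hochberg over all genes, preparation as a block), in 15 of the 24 tests of 8 members in 3 pairs of classes. Over all genes the share called with the block was 20.4%, 38.5% and 11.7% by pair. With no replicate block 6 of the tests passed. The share of all genes called in that fit is not given, so that this number is no result about the members. In the order of pairs below, the 6 were Enpp1, Alpl and Phex in the first, Phex in the second, and Ibsp and Alpl in the third. Values are differences of log2 fold changes, Fracture over Control. Between osteoblasts and hypertrophic chondrocytes they were 2.03 for Enpp1, 1.58 for Spp1, 0.75 for Alpl, -0.79 for Phex and -0.46 for Ibsp. Between osteoblasts and BMSC-like cells they were 1.49 for Phex, 1.17 for Spp1, 1.03 for Enpp1, 0.68 for Dmp1 and -0.67 for Ibsp. Between hypertrophic and other chondrocyte-like cells they were 2.40 for Dmp1, -1.82 for Mepe, -1.20 for Ibsp, -0.94 for Alpl and -0.78 for Phex. When preparations were left out in turn, the difference in this last pair ranged from 0.82 to 5.37 for Dmp1. It ranged from -2.70 to -0.05 for Mepe and from -1.28 to -0.06 for Phex. Between osteoblasts and hypertrophic chondrocytes it was -0.59 to -0.17 for Ibsp. The calls of Mepe and Phex in the last pair were lost with the Col10a1 threshold at 10, and that of Mepe also at 50. With the highest doublet scores removed, the call of Ibsp in the first pair was lost. That of Enpp1 in the second pair was lost with the Bglap threshold at 50. The differences for Dmp1 and Mepe were not refitted without the first library of Control preparation 1. In hypertrophic chondrocytes that library held more of both genes than the other Control libraries. Without it, the log2 fold change within hypertrophic chondrocytes was 3.55 for Dmp1 and -1.92 for Mepe. Groups of 2 were not tested for outlying preparations.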

How the results depend on the processing

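With 2 preparations per group, the calls depended most on the preparations. The number of members called was 5 in osteoblasts, 3 in hypertrophic chondrocytes and 17 over the 7 other classes. With 1 preparation left out it ranged from 0 to 6 in osteoblasts, from 0 to 5 in hypertrophic chondrocytes and from 2 to 39 in the other classes, the lowest values without either Fracture preparation, when edgeR called 0 of all genes in osteoblasts and in hypertrophic chondrocytes. Without a Control preparation, 21.4% and 23.9% of all genes were called in osteoblasts, 19.5% and 29.2% in hypertrophic chondrocytes and 35.2% and 41.6% in the other classes, against 9.24%, 19.4% and 25.2% with all preparations. The lone preparation is then assumed to vary like the other group. The share of all genes called in the other classes without a Fracture preparation is not given. The low numbers of members called there are thus no result about the members. The same assumption is made in all fits with 1 preparation left out. Phex in BMSC-like cells was called in each of these fits. With the replicate block, 2 members were called in osteoblasts (Dmp1 and Phex, with 3.25% of all genes) and 1 in hypertrophic chondrocytes (Enpp1, with 8.61%). Same-numbered preparations deviated together with a correlation over genes of -0.02 to 0.12 by class. With 1 pair of deviations per class, this cannot decide whether the preparation numbers pair the samples, and the labels do not say. Osteoblasts within the osteoblast-like cluster gave 3 calls (5.70% of all genes), no filter on low counts gave 5 in hypertrophic chondrocytes (14.5%), and DESeq2 gave 28 in the other classes (23.0%). The cause was not tested. The differences between classes numbered 15 with the preparation as a block and 6 with no replicate block, where the share of all genes called is not given. Enpp1 in BMSC-like cells changed sign without integration (-0.49). The share of hypertrophic chondrocytes with an Spp1 UMI was higher in Fracture by 37.6 percentage points, by 42.4 when thinned to 2000 UMIs and by 19.96 with no thinning, and the share of BMSC-like cells with a Phex UMI differed by -7.56, -12.5 and -17.7. Without the first library of Control preparation 1, 4 members were called in each of osteoblasts and hypertrophic chondrocytes (with 1191 of 13520 and 2170 of 14461 genes). Enpp1 in osteoblasts and Mepe in hypertrophic chondrocytes lost their calls, and Dmp1 and Spp1 gained one in the latter. This fit and the removal of the cells with the highest doublet scores were added after the data were seen. Library totals in place of TMM moved the median log2 fold change over all genes by -0.22 in osteoblast-like cells under the Bglap threshold, -0.19 in BMSC-like, -0.17 in other chondrocyte-like and -0.12 in endothelial-like cells.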
